A study of Homo sapiens with 12 samples.

Results

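The comparison described here is that of KMS-11 cells treated with NSC12 for 12 h against KMS-11 cells given DMSO for 12 h, across 20045 genes. It uses 6 of the 12 arrays of the series, chosen by their titles: 3 arrays of NSC12 at 12 h and 3 of DMSO at 12 h. KMS-11 is an established human multiple myeloma line, a tumour of plasma cells, whose translocation brings FGFR3 and NSD2 next to the immunoglobulin heavy chain locus. In all groups the cells had been kept in 1% FBS for 24 h before treatment. The treated cells received 6 µM NSC12, a small molecule that the title of the series calls an FGF trap, and the control cells DMSO. The remaining 6 arrays are the same 2 treatments at 6 h. All results come from 1 cell line at 1 dose, and nothing in the labels tells if replicates came from different cultures. Spread between arrays, as p-values here use it, may therefore be technical.

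Cells answer damaged or misfolded protein through heat shock factor HSF1, which binds inverted GAA repeats in the promoters of chaperone genes. An excess of zinc or other metals is answered through the factor MTF1, which binds metal response elements before the metallothionein genes. Plasma cells make large amounts of antibody, and so depend on protein folding in the endoplasmic reticulum (ER), on the removal of misfolded protein and on amino acid supply. FGFR3 signals through RAS and MAPK, whose output is held back by feedback inhibitors such as the Sprouty proteins.

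All 11 plasma cell markers in the list lay above background in at least 1 of the groups, but on their brightest probes 6 of them were lower in NSC12 cells and 0 higher. Their summed intensity was 57189 to 59682 in NSC12 cells and 65114 to 65476 in DMSO cells, with no overlap. The markers that fell on these probes were PRDM1 (-0.98), SDC1 (-0.49), POU2AF1 (-0.41), IRF4 (-0.40), XBP1 (-0.39) and TNFRSF17 (-0.20). PRDM1 gave -0.57, 0.67 and 0.38 on its other probes, each of which passed, so its direction depends on the probe. As the mean of their probes, PRDM1 (-0.13, adjusted p = 0.244) and SDC1 (-0.09, adjusted p = 0.266) did not pass. FGFR3 had 13.90, 13.83 and 13.95 in NSC12 cells, against 13.78, 13.89 and 13.98 in DMSO cells (normalized log2 intensity). The groups overlapped, and the change did not pass, at 0.01 ± 0.06 (adjusted p = 0.959). Levels are on this log2 scale throughout, a change is NSC12 minus DMSO at 12 h on the same scale with the standard error of the fit, and background is the level of 6.97 below which 95% of olfactory receptor genes lay. Among the listed markers of other cells, those above this level numbered 2 of 11 for T and NK cells, 7 of 10 for myeloid cells and 4 of 10 for stroma and endothelium. Of the myeloid ones, CD14, LYZ, S100A8, S100A9 and MPO lay near this level, CD14 being the highest of them at 7.10. The plasma cell marker CD38 also cleared it only narrowly, at 6.97 in DMSO cells. VIM, at 13.59 in NSC12 and 13.66 in DMSO cells, was by far the brightest of the stromal list. The summed intensity of the myeloid list was 1854 to 2149 in NSC12 cells and 1651 to 1843 in DMSO cells, with no overlap. CD68, a lysosomal protein found in many cell types, rose by 0.57. FCGR3A, also of the myeloid list, rose by 0.30, from 7.26 in DMSO cells to 7.56 in NSC12 cells. Of the stromal list, PDGFRB fell by 0.30. The T and NK sums were 1259 to 1293 in NSC12 cells and 1261 to 1271 in DMSO cells, and the stromal and endothelial sums 11803 to 14636 in NSC12 cells and 13731 to 14445 in DMSO cells. The part of other cells in the results was not tested. Mean raw intensity per array was 548 to 618 in NSC12 cells and 451 to 599 in DMSO cells, the dimmest array being DMSO replicate 1. Arrays of a group correlated at 0.993 to 0.997, and arrays of different treatment at 0.972 to 0.977.

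At 12 h, 2734 genes (13.6% of 20045) were higher in NSC12 cells and 3050 (15.2%) were lower, 28.9% in all, by limma with Benjamini-Hochberg adjustment at 0.05. The arrays of the groups did not overlap for 38.2% of genes. The rises were fewer but reached further: 142 genes rose and 193 fell by at least 2-fold, while 44 rose and 2 fell by at least 4-fold. With median centring in place of quantile normalization, 1483 genes were higher and 2604 lower, so that 36.3% of the calls were rises in place of 47.3%. A call is named held below where the same call was made with every other normalization, with the replicate number as a block, on the 12 h arrays alone and without each 12 h array in turn, where the mean of the gene's probes had the same direction, and where the groups did not overlap and 1 of them lay above background. In this sense 1289 rises (6.43% of genes) and 1984 falls (9.9%) held. The median change over all genes was -0.001. Of the 12169 genes above background at 12 h, 22.2% were higher and 24.8% lower. Since most members of the lists below lie above background, these shares are the closer ones to read their counts against. Calls were spread over the range of levels, with 29.7% of the genes between 8 and 10 higher and 32.2% lower, against 0.809% and 0.903% of the genes below background, whose changes are compressed by the background left in the intensities. Changes from a level just above background are compressed too, and the standard error does not cover this. RNA came from whole cultures, so fewer cells with a transcript and less of it per cell cannot be told apart.

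**Figure D1:**
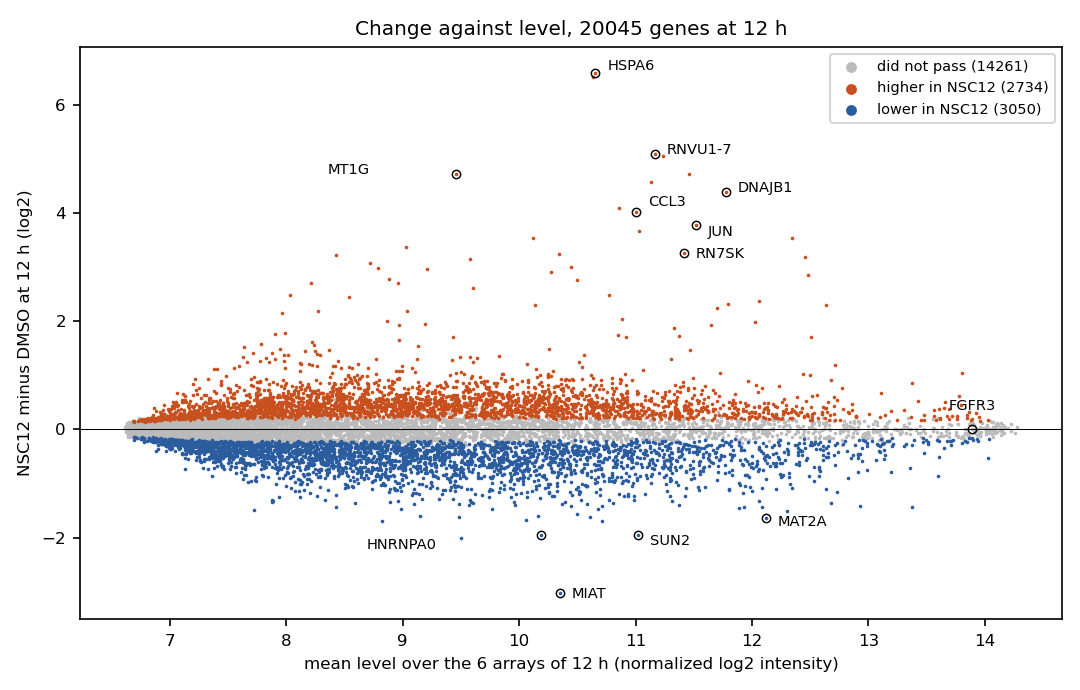
Change at 12 h (NSC12 minus DMSO, log2) against the mean level over the 6 arrays of 12 h (normalized log2 intensity), 1 point a gene, coloured by the call of limma at an adjusted p of 0.05. The rises reach 6.59 (HSPA6) and the falls -3.02 (MIAT), and FGFR3 lies near 0 at the bright end.

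The largest rise was of HSPA6, an HSP70 chaperone that is close to silent without stress. Its levels were 13.98, 13.87 and 13.99 in NSC12 cells, against 7.36, 7.37 and 7.37 in DMSO cells. The groups lay far apart, with a spread within each that was small beside the gap, and the change was 6.59 ± 0.07 (adjusted p = 5.07e-25). With normexp background correction the change was 7.03, so its size depends on how background is treated. Among the 15 largest held rises were the pseudogene HSPA7, the collagen chaperone SERPINH1, the U1 small nuclear RNAs, metallothionein MT1G, the chemokine CCL3 with its copies CCL3L1 and CCL3L3, the transcription factor JUN, and IER5, an immediate early gene. DNAJB1, the J-domain partner that activates HSP70, had 13.99, 13.97 and 13.94 in NSC12 cells, against 9.60, 9.63 and 9.53 in DMSO cells and changed by 4.38 ± 0.07 (adjusted p = 1.2e-21). IER5 had 12.87, 12.76 and 12.96 in NSC12 cells, against 9.42, 9.13 and 9.02 in DMSO cells, and JUN had 13.37, 13.42 and 13.42 in NSC12 cells, against 9.70, 9.71 and 9.49 in DMSO cells. Their changes were 3.68 ± 0.09 (adjusted p = 1.34e-18) and 3.77 ± 0.07 (adjusted p = 2.52e-20). SNORD14D, a box C/D small nucleolar RNA of the U14 kind, was the most variable of the 15 in treated cells, with 11.08, 10.18 and 10.88 in NSC12 cells, against 7.27, 7.31 and 7.44 in DMSO cells. Probes may share signal between copies of very similar sequence, as in HSPA6 with HSPA7, and within the CCL3, MT1 and U1 families, so the part of each copy is uncertain.

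**Figure D2:**
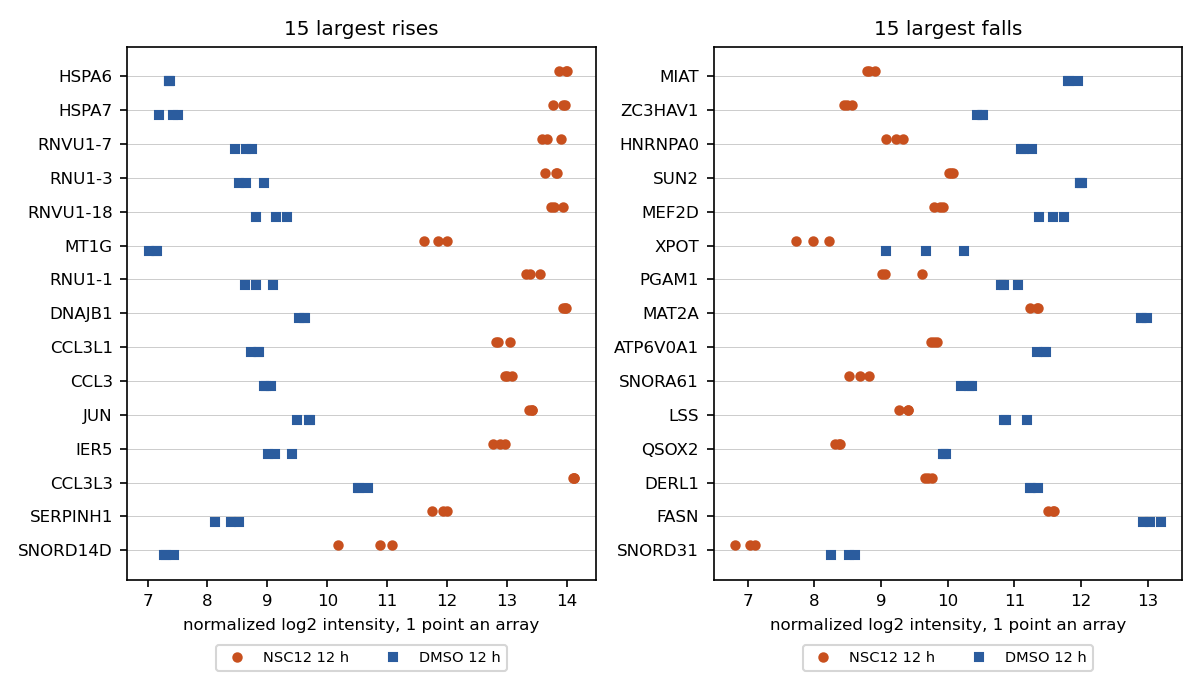
Normalized log2 intensity of the 15 largest held rises (left) and 15 largest held falls (right), 1 point an array, NSC12 12 h as circles above DMSO 12 h as squares. By the definition of a held call, no gene overlaps between the groups. XPOT has the widest spread among the DMSO arrays, from 9.07 to 10.25.

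Among chaperones of the cytosol, rises were largest in the HSP70 family and its J-domain partner DNAJB1. HSF1, the factor itself, did not pass, at 0.13 ± 0.07 (adjusted p = 0.212). In the HSP70 and HSP110 family, 9 of 15 measured genes rose and 2 fell (7 and 1 held), with a median change of 0.39. HSPA1B and HSPA1A, the main inducible HSP70 genes, are near-identical in sequence. HSPA1B had 14.13, 13.90 and 14.10 in NSC12 cells, against 10.48, 10.83 and 11.27 in DMSO cells, and was 9.11-fold higher. HSPA1A lay below background in DMSO cells (9.57 ± 0.17 in NSC12 cells and 6.86 ± 0.05 in DMSO cells, SD, n = 3 each), and was at least 6.06-fold higher. HSPH1, the HSP110 that exchanges nucleotide on HSP70, rose by 1.19. Of the J-domain co-chaperones, 12 of 38 measured genes rose and 10 fell (8 and 3 held), with a median change of 0.05. That is 31.6% higher and 26.3% lower, against 22.2% and 24.8% of the genes above background. DNAJB4 rose by 1.31, DNAJA1 by 0.85 and DNAJB9 by 0.67, whereas DNAJC14 fell by 0.64.

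Other chaperone families held rises and falls. Among HSP90 and its co-chaperones, 7 of 17 measured genes rose and 4 fell (3 and 2 held), with a median change of 0.05. HSP90AA1, the inducible HSP90, rose by 1.05 on its brightest probe, but a second bright probe gave -0.06. HSP90AB1, the constitutive form, rose by 0.33, and UNC45A, a myosin chaperone, fell by 0.67. Of the chaperonin genes, 2 of 10 measured genes rose and 6 fell (1 and 1 held), with a median change of -0.29. TCP1, a subunit of the cytosolic chaperonin, showed a rise on its brightest probe (0.55). Its other probes gave -0.82 and 0.41, which both passed, so its direction depends on the probe. The mean of its probes did not pass (0.05, adjusted p = 0.745). CCT5 fell by 0.42. In the list of HSF factors, BAG proteins and small heat shock proteins, 4 of 18 measured genes rose and 2 fell (4 and 1 held), with a median change of -0.02 (0.03 under median centring). The share of 22.2% higher was that of the genes above background, and 11.1% were lower against 24.8%. SERPINH1, the collagen chaperone HSP47, had 11.75, 11.93 and 11.99 in NSC12 cells, against 8.53, 8.40 and 8.13 in DMSO cells. BAG3, which links HSP70 to autophagy, was 6.81-fold higher. CRYAB, a small heat shock protein below background in DMSO cells, was at least 1.65-fold higher.

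The promoters of these genes were searched on both strands for GAANNTTCNNGAA, the 3-unit heat shock element, in the 250 bases before the start of transcription. It was found in 120 of 27305 RefSeq promoters of GRCh38.p14 (0.439%), in 5 of 975 promoters of genes with a held rise (0.513%) and in 3 of 1625 with a held fall (0.185%). In the 4 chaperone lists, 4 of 28 promoters of genes that rose held it (HSPA6, HSPA8, CHORDC1 and SERPINH1), and 1 of 46 of the other members (DNAJB6). The 3 promoters below are shown for the clear matches before genes that rose and held; capitals mark the matches, which overlap in CHORDC1, whose product is an HSP90 co-chaperone and which rose by 0.56. DNAJB1, BAG3 and HSPH1 had no match in this window. Sequences run 5′ to 3′ along the gene's strand, from RefSeq.
HSPA6, chr1:161524290-161524539, + strand: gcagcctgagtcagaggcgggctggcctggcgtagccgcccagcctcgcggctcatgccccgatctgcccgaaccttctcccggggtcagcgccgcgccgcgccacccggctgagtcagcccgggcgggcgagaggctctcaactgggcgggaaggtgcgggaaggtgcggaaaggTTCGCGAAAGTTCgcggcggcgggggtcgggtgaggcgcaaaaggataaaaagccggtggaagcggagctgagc
SERPINH1, chr11:75562003-75562252, + strand: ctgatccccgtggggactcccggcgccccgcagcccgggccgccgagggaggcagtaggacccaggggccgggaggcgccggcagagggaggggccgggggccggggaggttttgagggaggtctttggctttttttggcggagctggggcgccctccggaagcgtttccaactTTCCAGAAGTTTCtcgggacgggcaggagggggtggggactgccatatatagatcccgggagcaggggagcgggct
CHORDC1, chr11:90223050-90223299, - strand: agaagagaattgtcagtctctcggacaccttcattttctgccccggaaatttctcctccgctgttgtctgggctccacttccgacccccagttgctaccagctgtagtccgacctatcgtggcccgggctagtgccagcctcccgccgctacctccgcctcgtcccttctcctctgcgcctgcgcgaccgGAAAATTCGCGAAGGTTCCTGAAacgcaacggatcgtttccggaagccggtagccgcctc

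Metallothioneins and a zinc exporter rose, while MTF1, the metal-responsive factor, fell by 0.45. Of the metallothioneins, small proteins that bind zinc and copper, 6 of 10 measured genes rose and 0 fell (6 and 0 held), with a median change of 1.19. MT1G had 11.61, 11.99 and 11.84 in NSC12 cells, against 7.14, 7.15 and 7.02 in DMSO cells, and MT2A had 11.10, 11.24 and 11.12 in NSC12 cells, against 8.10, 7.94 and 7.97 in DMSO cells. The changes were 4.71 ± 0.10 (adjusted p = 1.75e-19) and 3.15 ± 0.09 (adjusted p = 3.22e-17). MT1G lay near background in DMSO cells, and its change was 5.26 with normexp background correction. MT1X was 4.1-fold higher, and MT1H at least 4.95-fold higher from below background. SLC30A1, which exports zinc across the cell membrane, rose by 2.61, with its second probe at 2.53. Over the whole list of zinc transporters, 3 of 25 measured genes rose and 7 fell (2 and 5 held), with a median change of -0.05. These shares of 12% higher and 28% lower compare with 22.2% and 24.8% of the genes above background. The importers SLC39A1 and SLC39A14 fell by 1.03 and 0.57, while the importer SLC39A4 rose by 0.76 on the only probe of 3 above background.

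The core of the metal response element was searched as TGCACNC or TGCGCNC on both strands, overlaps allowed. It occurred in 24.7% of all promoters, in 34.5% of those of held rises and in 34.9% of those of held falls, so a single copy did not set the rises apart. At least 4 copies were found in 100 of 27305 promoters (0.366%), in 9 of 975 of held rises (0.923%) and in 11 of 1625 of held falls (0.677%). The metallothionein promoters below are shown for their number of copies, which was 7 in MT2A, 8 in MT1H and 4 in MT1X; capitals mark each copy. All 3 of these genes rose, and the promoters of 2 members that did not pass, MT1B and MT4, held the motif too.
MT2A, chr16:56608334-56608583, + strand: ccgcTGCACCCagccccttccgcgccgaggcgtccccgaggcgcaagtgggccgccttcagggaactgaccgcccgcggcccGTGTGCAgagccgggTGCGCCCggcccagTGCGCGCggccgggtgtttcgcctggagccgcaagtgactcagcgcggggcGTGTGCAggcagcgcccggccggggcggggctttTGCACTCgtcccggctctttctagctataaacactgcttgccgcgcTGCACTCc
MT1H, chr16:56669564-56669813, + strand: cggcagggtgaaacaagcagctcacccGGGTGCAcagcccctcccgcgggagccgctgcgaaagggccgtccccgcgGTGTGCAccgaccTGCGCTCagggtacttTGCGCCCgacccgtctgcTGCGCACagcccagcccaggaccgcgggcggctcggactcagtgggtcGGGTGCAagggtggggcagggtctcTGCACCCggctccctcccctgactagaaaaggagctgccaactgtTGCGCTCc
MT1X, chr16:56682220-56682469, + strand: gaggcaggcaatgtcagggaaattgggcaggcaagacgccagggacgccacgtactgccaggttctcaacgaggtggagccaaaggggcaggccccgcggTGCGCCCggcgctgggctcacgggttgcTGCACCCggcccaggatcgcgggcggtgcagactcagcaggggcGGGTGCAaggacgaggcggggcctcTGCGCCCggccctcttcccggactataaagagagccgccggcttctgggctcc

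Stress signalling genes rose strongly in a few members. In the list of integrated stress response regulators and targets, 9 of 20 measured genes rose and 4 fell (8 and 1 held), with a median change of 0.04. PPP1R15A, which directs the removal of phosphate from the initiation factor eIF2alpha, had 13.95, 13.85 and 13.92 in NSC12 cells, against 11.09, 11.05 and 11.02 in DMSO cells. ATF3 and DDIT3, transcription factors of the stress response, rose by 2.29 and 1.71, the ATF3 value resting on the 1 of its 3 probes that lay above background. DDIT4, an inhibitor of mTORC1, rose by 0.90 and TRIB3 by 0.57, whereas CHAC1, a further target of ATF4, was at least 1.19-fold lower, to below background. Of the immediate early and AP-1 genes, 8 of 27 measured genes rose and 6 fell (7 and 5 held), with a median change of 0.05. These shares of 29.6% higher and 22.2% lower compare with 22.2% and 24.8% of the genes above background. DUSP1 and DUSP2, phosphatases that switch off MAP kinases, rose by 1.72 and 1.94, while JUNB and KLF2 fell by 0.62 and 0.55. Of the chemokine list, 6 of 22 measured genes rose and 3 fell (5 and 1 held), with a median change of 0.03 (-0.0034 under median centring). As shares, 27.3% were higher and 13.6% lower, against the same 22.2% and 24.8%. CCL3, also known as MIP-1alpha and made by myeloma cells, had 13.09, 13.003 and 12.96 in NSC12 cells, against 8.97, 9.07 and 8.95 in DMSO cells. CCL4L1 was below background in DMSO cells and at least 8.41-fold higher in NSC12 cells.

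Small noncoding RNAs were among the largest rises. Of the spliceosomal small nuclear RNAs, 12 of 13 measured RNAs rose and 0 fell (11 and 0 held), with a median change of 1.40, the exception being RNU5D-1 (0.02). RNVU1-7, a U1 RNA, had 13.58, 13.90 and 13.67 in NSC12 cells, against 8.46, 8.64 and 8.75 in DMSO cells. RNU11, of the minor spliceosome, was 7.93-fold higher, RNU4-2 2.64-fold and RNU6-1 3.94-fold. The DMSO level of RNU11 was near background, and with normexp background correction RNU11 was 10.7-fold higher. RN7SK, the RNA that keeps the elongation kinase P-TEFb inactive, had 12.91, 13.26 and 12.98 in NSC12 cells, against 9.54, 9.75 and 10.06 in DMSO cells. Its groups lay apart although its DMSO arrays spread from 9.54 to 10.06, the change was 3.26 ± 0.14 (adjusted p = 4.41e-14), and a second probe gave 4.17. MEPCE, the enzyme that caps this RNA, fell by 1.03. RPPH1 and RMRP, the RNA parts of RNase P and RNase MRP, rose by 1.40 and 1.41. All 4 Y RNAs, partners of the Ro protein, rose, 3 of them held, RNY1 with 10.27, 10.41 and 10.19 in NSC12 cells, against 8.38, 8.50 and 8.85 in DMSO cells. Other small transcripts fell. The vault RNA VTRNA2-1 fell by 1.04 where VTRNA1-1 rose by 0.67, and SNAR-A1 fell by 1.31. The cRNA was made with a kit that primes on poly(A) tails, so for RNAs that normally lack a tail the level is that of the copies so primed, and changes in tailing and in amount cannot be told apart.

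**Figure D3:**
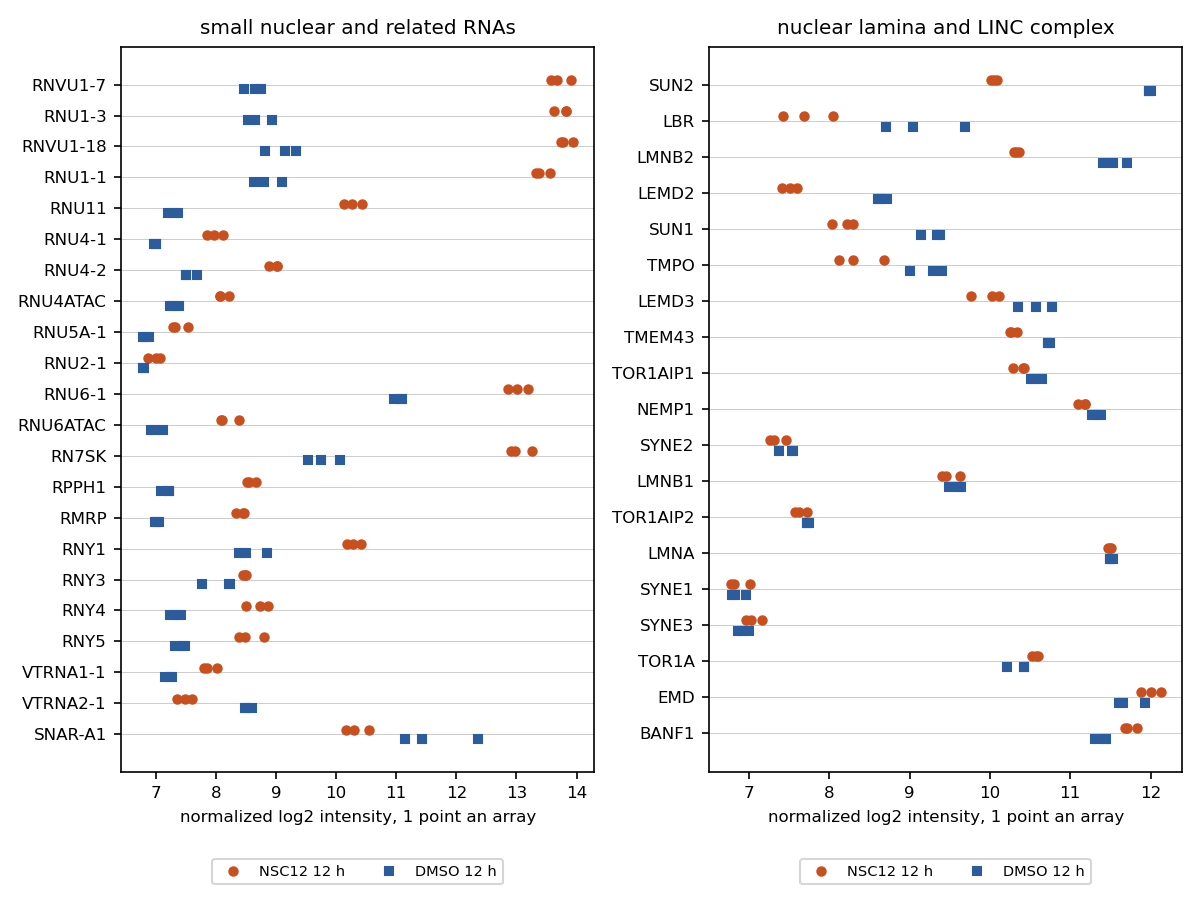
Normalized log2 intensity by array at 12 h for small nuclear and related RNAs (left) and for the nuclear lamina and LINC complex list (right), NSC12 as circles above DMSO as squares. Every NSC12 array lies above every DMSO array for the U1 RNAs, whereas SUN2, LMNB2, LEMD2 and SUN1 lie lower in every NSC12 array.

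Small nucleolar RNAs guide the modification of ribosomal RNA. Of 279 measured, 69 rose and 23 fell (49 and 16 held), with a median change of 0.05. As shares, 24.7% were higher and 8.24% lower. The shares were 22.2% and 24.8% of the genes above background, and 13.6% and 15.2% of all genes. Of the 279, 155 lay above background. The U3 RNA SNORD3A, needed to process ribosomal RNA, was 9.43-fold higher, and SNORA28 5.44-fold. SNORA61 fell by 1.62 and SNORD31 by 1.48, both among the 15 largest falls of all genes. Of the host transcripts from whose introns such RNAs are cut, 10 of 16 measured transcripts rose and 1 fell (8 and 0 held), with a median change of 0.30. EPB41L4A-AS1 rose by 1.31 and SNHG17 by 1.25. Among RNAs of the Cajal bodies, SCARNA18 and SCARNA13 fell by 1.32 and 0.95.

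Replication-dependent histone genes, whose transcripts normally end in a stem-loop in place of a poly(A) tail, rose as a group: 40 of 59 measured genes rose and 2 fell (36 and 2 held), with a median change of 0.51. That is 67.8% higher, against 22.2% of the genes above background and 13.6% of all genes. H3C4 had 10.27, 10.29 and 10.21 in NSC12 cells, against 7.18, 7.23 and 7.14 in DMSO cells, and was 8.41-fold higher. With normexp background correction it was 11.7-fold higher, its DMSO level being near background. H2AC20 rose by 1.88 and H3C7 by 2.003, and H2BC7, below background in DMSO cells, was at least 4.19-fold higher. H2AC11 and H2BC21 fell by 0.49 and 0.61. Histone copies are close in sequence, so the probes may share signal.

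The largest fall was of MIAT, a nuclear long noncoding RNA, with 8.79, 8.91 and 8.82 in NSC12 cells, against 11.95, 11.81 and 11.82 in DMSO cells. The change was -3.02 ± 0.08 (adjusted p = 6.58e-18), so that NSC12 cells had 12.3% of the DMSO intensity. HNRNPA0, a protein that binds AU-rich RNA, had 9.33, 9.08 and 9.22 in NSC12 cells, against 11.10, 11.27 and 11.14 in DMSO cells. MEF2D, a transcription factor that class IIa deacetylases repress, had 9.88, 9.79 and 9.93 in NSC12 cells, against 11.37, 11.57 and 11.75 in DMSO cells. Their changes were -1.96 ± 0.08 (adjusted p = 1.74e-14) and -1.69 ± 0.09 (adjusted p = 6.17e-12). ZC3HAV1, an antiviral zinc finger protein, was lower at 25% of the DMSO intensity on its brightest probe, but changed by 0.09 and 0.55 on the others, so its direction depends on the probe. MAT2A, which makes S-adenosylmethionine, had 11.34, 11.24 and 11.35 in NSC12 cells, against 12.90, 12.92 and 12.99 in DMSO cells. ATP6V0A1, a subunit of the proton pump of lysosomes, changed by -1.62 ± 0.08 (adjusted p = 4.34e-13). QSOX2, a sulfhydryl oxidase, fell by 1.59. LSS, of sterol synthesis, changed by -1.60 on its brightest probe, its other probes lying near background at -0.18 and -0.29. No treated array reached a control array for any of these genes, as a held call requires.

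Genes of the nuclear lamina and of nuclear transport fell more often than they rose. In the lamina and LINC complex list, 2 of 19 measured genes rose and 8 fell (0 and 8 held), with a median change of -0.17. That is 10.5% higher and 42.1% lower, against 22.2% and 24.8% of the genes above background, where 18 of the 19 lay. SUN2, which ties the nucleus to the cytoskeleton, had 10.05, 10.08 and 10.01 in NSC12 cells, against 12.01, 11.98 and 11.98 in DMSO cells, and its change was -1.94 ± 0.07 (adjusted p = 8.01e-15). LMNB2, a B-type lamin, had 10.29, 10.33 and 10.36 in NSC12 cells, against 11.71, 11.53 and 11.41 in DMSO cells. LEMD2 and SUN1 fell by 1.14 and 1.10. LBR, the lamin B receptor, was lower on arrays that spread widely, with 8.04, 7.42 and 7.68 in NSC12 cells, against 8.70, 9.04 and 9.69 in DMSO cells. LMNA and LMNB1 did not pass (-0.02 and -0.09). Of the importins, exportins and their Ran partners, 4 of 30 measured genes rose and 15 fell (2 and 10 held), with a median change of -0.22. KPNB1, the main import receptor, had 11.37, 11.45 and 11.37 in NSC12 cells, against 12.49, 12.26 and 12.39 in DMSO cells. XPOT, which exports tRNA, had 8.22, 7.72 and 7.98 in NSC12 cells, against 9.07, 9.68 and 10.25 in DMSO cells. The arrays of XPOT did not overlap, as a held call requires, but the DMSO arrays differed among themselves by more than 1 log2 unit. XPO5, which exports microRNA precursors, fell by 0.91. NUTF2 and NXT1, small transport factors, rose by 0.72 and 0.68. Of the nucleoporins, 9 of 31 measured genes rose and 11 fell (7 and 6 held), with a median change of -0.01. Their shares of 29.0% higher and 35.5% lower were each less than 1.5 times those of the genes above background. NUP210 and NUP133 fell by 0.89 and 0.82, and SEC13 and NDC1 rose by 0.85 and 0.75.

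Regulators of splicing fell more often than they rose. Of the hnRNP proteins, 5 of 27 measured genes rose and 12 fell (3 and 7 held), with a median change of -0.19. HNRNPAB fell by 1.45 with all 3 of its probes lower, and HNRNPUL2 by 1.36. HNRNPL, a splicing repressor, was higher, with 11.28, 11.20 and 11.24 in NSC12 cells, against 9.31, 9.66 and 10.65 in DMSO cells. Its DMSO arrays spread more widely than its NSC12 arrays. Of the SR proteins and their relatives, which promote exon inclusion, 3 of 20 measured genes rose and 8 fell (2 and 4 held), with a median change of -0.12. SRSF1 fell by 1.43, SRSF4 by 0.83 and TRA2B by 0.71. Of the list of CLK and related kinases, some of which phosphorylate SR proteins, 4 of 11 measured genes rose and 1 fell (4 and 0 held), with a median change of 0.00062 (-0.04 under median centring), with CLK1 at 0.63 and DYRK4 at 0.80. CIRBP, an RNA-binding protein known to rise in the cold, fell by 0.94.

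The mitochondrial ribosome showed frequent rises: 49 of 77 measured genes rose and 8 fell (33 and 5 held), with a median change of 0.33. MRPL1 had 10.63, 10.85 and 10.74 in NSC12 cells, against 9.74, 9.75 and 9.80 in DMSO cells, and its change was 0.98 ± 0.08 (adjusted p = 6.11e-09). MRPL19 rose by 0.87 and MRPS18A by 0.86, while MRPS34 fell by 0.67. Of the respiratory chain and ATP synthase subunits, 19 of 67 measured genes rose and 8 fell (6 and 4 held), with a median change of 0.09; SDHA, of complex II, fell by 0.95 and ATP5F1A, of ATP synthase, by 0.85, with a second probe of each lower as well.

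In the cytosol, 13 of 67 measured genes rose and 5 fell (7 and 0 held), with a median change of 0.03 among ribosomal proteins, RPL14 having the largest rise among those that held, at 1.49 with a second probe at 1.07. Of the translation initiation factors, 18 of 37 measured genes rose and 9 fell (12 and 3 held), with a median change of 0.21. EIF3B, a scaffold subunit of eIF3, had 12.22, 12.21 and 12.25 in NSC12 cells, against 13.64, 13.70 and 13.55 in DMSO cells, and all 3 of its probes fell. EIF4G1, the scaffold of the cap-binding complex, fell by 0.66, and EIF4EBP1, an inhibitor of that complex, rose by 0.77. Of the aminoacyl-tRNA synthetases, which charge tRNA, 4 of 19 measured genes rose and 7 fell (0 and 3 held), with a median change of -0.12. IARS1 fell by 1.32 and WARS1 by 0.71. Of the ribosome biogenesis factors, 9 of 40 measured genes rose and 9 fell (2 and 3 held), with a median change of -0.05. That is 22.5% higher and 22.5% lower, near the shares of the genes above background. TSR1 was at -1.17 and DDX10 at 0.84.

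The secretory pathway, on which plasma cells depend, was lower in part. Of the ER chaperones and disulfide isomerases, 2 of 22 measured genes rose and 10 fell (0 and 8 held), with a median change of -0.22. TXNDC5, a disulfide isomerase abundant in plasma cells, had 12.70, 12.59 and 12.69 in NSC12 cells, against 14.11, 14.17 and 13.98 in DMSO cells. P4HB, the archetypal isomerase, fell by 0.75 and PDIA6 by 0.97. Of the ER stress sensors and the genes of ER-associated degradation, 4 of 19 measured genes rose and 10 fell (0 and 6 held), with a median change of -0.25. DERL1, part of the channel through which misfolded protein leaves the ER, had 9.71, 9.66 and 9.76 in NSC12 cells, against 11.35, 11.26 and 11.24 in DMSO cells. VCP, the ATPase that pulls such protein out, had 9.90, 9.89 and 9.85 in NSC12 cells, against 11.15, 11.19 and 11.22 in DMSO cells, and NPLOC4, its cofactor, fell by 0.95. Of the proteasome subunits, 7 of 33 measured genes rose and 10 fell (4 and 3 held), with a median change of -0.01 (0.10 under median centring). All 33 lay above background, and the shares of 21.2% higher and 30.3% lower were near those of all such genes. PSMD2 fell by 0.84 while PSMD14 rose by 0.52. Of the lysosome and autophagy genes, 5 of 37 measured genes rose and 12 fell (4 and 3 held), with a median change of -0.05; ULK1, a kinase that starts autophagy, fell by 1.11.

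In metabolism, amino acid synthesis genes fell more often than they rose: for serine, glycine, asparagine and proline, 4 of 15 measured genes rose and 10 fell (3 and 6 held), with a median change of -0.26. CBS, of the transsulfuration route, fell by 1.19 and ASNS, asparagine synthetase, by 0.64, while CTH rose by 0.72. The second ASNS probe gave -0.17, which did not pass, and the other CTH probes lay near background. Of the amino acid transporters, 4 of 14 measured genes rose and 7 fell (3 and 5 held), with a median change of -0.16. SLC7A5, the leucine carrier, fell by 1.15 and its partner SLC3A2 rose by 0.77 on its brightest probe, with the second at 0.26, which did not pass. Of the glycolytic enzymes and glucose transporters, 5 of 24 measured genes rose and 10 fell (2 and 6 held), with a median change of -0.04. PGAM1, phosphoglycerate mutase, had 9.61, 9.01 and 9.06 in NSC12 cells, against 10.80, 10.84 and 11.05 in DMSO cells, with its second probe at -1.14. TXNIP, which restrains glucose uptake, fell by 1.35, and HK2 and PGK1 by 0.69 and 0.65, the second HK2 probe giving -0.07. Of the methionine cycle and polyamine enzymes, 4 of 22 measured genes rose and 5 fell (2 and 4 held). Their median change was -0.04 (0.02 under median centring). That is 18.2% higher and 22.7% lower, near the shares of the genes above background. AMD1, which feeds polyamine synthesis, fell by 1.25. Of the sterol and fatty acid enzymes, 4 of 28 measured genes rose and 10 fell (1 and 7 held), with a median change of 0.01 (-0.08 under median centring). FASN, fatty acid synthase, had 11.50, 11.57 and 11.59 in NSC12 cells, against 13.19, 13.03 and 12.93 in DMSO cells, and SCD, which desaturates fatty acids, fell by 1.10.

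Cell cycle genes did not move as one. No member of the list of G1 cyclins, their kinases and inhibitors, E2F factors and SKP2 rose: 0 of 30 measured genes rose and 14 fell (0 and 8 held), with a median change of -0.18. SKP2, which marks CDKN1B for destruction, had 9.75, 9.80 and 9.67 in NSC12 cells, against 11.26, 11.10 and 11.10 in DMSO cells, and its other probes were lower too (-0.86 and -0.38). CDKN1B itself fell by 0.70 on its brightest probe, with the second at 0.02. E2F2, an activator of S phase genes, had 11.24, 11.40 and 11.36 in NSC12 cells, against 12.40, 12.60 and 12.52 in DMSO cells. CCND2, a D-type cyclin, had 12.77, 12.79 and 12.84 in NSC12 cells, against 13.67, 13.54 and 13.56 in DMSO cells. Of the replication genes, 12 of 48 measured genes rose and 20 fell (5 and 11 held), with a median change of -0.09 (0.02 under median centring). POLD1 and RPA1, of the replication fork, fell by 0.97 and 0.96, and ORC5 and ORC3, of the origin recognition complex, rose by 0.77 and 0.64. Of the mitotic genes, 15 of 43 measured genes rose and 11 fell (8 and 6 held), with a median change of 0.01. Their shares were 34.9% higher and 25.6% lower, against 22.2% and 24.8% of the genes above background. CENPE, a kinetochore motor, rose by 0.81, and SPC24, a kinetochore subunit, fell by 0.76.

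Of the p53 target genes, 6 of 23 measured genes rose and 5 fell (3 and 4 held), with a median change of 0.09. That is 26.1% higher and 21.7% lower, near the shares of the genes above background. TP53INP1 was at -1.06 and BAX at 0.58. Of the BCL2 family and IAP genes, 6 of 23 measured genes rose and 8 fell (4 and 6 held), with a median change of -0.12. Their shares were 26.1% higher and 34.8% lower, against 22.2% and 24.8% of the genes above background. BCL2 had 10.07, 10.22 and 10.23 in NSC12 cells, against 11.16, 10.94 and 11.06 in DMSO cells, and MCL1 had 10.68, 10.57 and 10.78 in NSC12 cells, against 11.25, 11.22 and 11.23 in DMSO cells; both restrain apoptosis, and both were lower on every NSC12 array. Among genes that promote apoptosis, PMAIP1 rose by 0.91 and HRK by 0.81, and BMF fell by 0.71.

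Among the plasma cell transcription factors, 1 of 15 measured genes rose and 6 fell (0 and 3 held), with a median change of -0.01. IRF4, on which myeloma cells depend, had 10.66, 10.71 and 10.84 in NSC12 cells, against 11.20, 11.21 and 11.01 in DMSO cells; its fall of 0.40 did not pass under median centring (-0.38, adjusted p = 0.138). TCF3 fell by 0.56. MYC had 12.74, 12.44 and 12.77 in NSC12 cells, against 13.22, 13.26 and 13.22 in DMSO cells, a fall of 0.59 that did not pass under median centring either (-0.33, adjusted p = 0.137), and its second probe gave -0.14. MYCN, a relative of MYC, had 9.81, 9.54 and 9.81 in NSC12 cells, against 10.99, 11.11 and 11.09 in DMSO cells, and fell on both of its probes. Of the surface antigens and adhesion genes, 3 of 23 measured genes rose and 9 fell (2 and 4 held), with a median change of -0.07. CD48 rose by 0.86 and TNFRSF13B, a receptor for the survival factors BAFF and APRIL, by 0.86. CXCR4, the homing receptor, fell by 1.01 on its brightest probe, while a second probe above background gave -0.12. Of the ID factors and BMP SMAD genes, 3 of 13 measured genes rose and 3 fell (3 and 3 held), with a median change of -0.08. That is 23.1% higher and 23.1% lower, near the shares of the genes above background. ID1, which blocks basic helix-loop-helix factors, had 9.97, 10.06 and 10.16 in NSC12 cells, against 8.92, 8.86 and 8.59 in DMSO cells, and SMAD7, an inhibitor of the pathway, fell by 0.48 on its brightest probe, with the second at -0.14.

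In the list of FGF receptors and feedback inhibitors, 1 of 20 measured genes rose and 4 fell (0 and 3 held), with a median change of -0.07. These shares of 5% higher and 20% lower compare with 22.2% and 24.8% of the genes above background. SPRY1, a Sprouty inhibitor, had 9.93, 9.94 and 10.04 in NSC12 cells, against 10.86, 11.09 and 11.15 in DMSO cells, and changed by -1.06 ± 0.08 (adjusted p = 6.31e-10). ETV5, a transcription factor induced by FGF signalling, fell by 0.38 on its brightest probe, with the second at -0.12, which did not pass. DUSP4 was at least 1.07-fold lower, to below background. NSD2 did not pass, at 0.10 ± 0.08 (adjusted p = 0.437), nor did its other probes above background, at -0.18 and -0.16. Its brightest probe averaged 7.65 in NSC12 and 7.55 in DMSO cells, near background, where changes are compressed. Of the interferon response genes, 10 of 31 measured genes rose and 2 fell (3 and 2 held), with a median change of 0.10, with IFI6 at 1.00. Of the NRF2 targets and peroxide enzymes, 6 of 25 measured genes rose and 7 fell (5 and 5 held). Their median change was -0.0015 (0.0049 under median centring). That is 24% higher and 28% lower, near the shares of the genes above background. TXNRD1, thioredoxin reductase, was at -0.90 and TKT at 0.51.

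Further lists are given for a few of their members. Of the NF-kappaB subunits and inhibitors, 4 of 16 measured genes rose and 3 fell (2 and 2 held), with a median change of 0.03 (-0.04 under median centring), shares near those of the genes above background. NFKB1, which gives rise to the p50 subunit, fell by 0.67, and NFKBIZ, a nuclear regulator of the pathway, rose by 0.58. Of the homologous recombination and Fanconi genes, 3 of 28 measured genes rose and 5 fell (2 and 3 held), with a median change of 0.05 (-0.0016 under median centring), shares under those of the genes above background; FANCC, of the Fanconi core complex, fell by 0.51. Of the sterol export genes and LXR targets, 4 of 9 measured genes rose and 1 fell (1 and 1 held), with a median change of 0.23. NPC1, which moves cholesterol out of lysosomes, fell by 1.01, and MYLIP, which leads the LDL receptor to degradation, rose by 0.73. Of the MEF2 factors and class IIa deacetylases, 1 of 7 measured genes rose and 2 fell (1 and 2 held), with a median change of -0.10. MEF2C had 8.12, 8.15 and 8.30 in NSC12 cells, against 7.25, 7.42 and 8.09 in DMSO cells, so that it rose, next to DMSO arrays that spread widely, where MEF2D fell.

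**Figure D4:**
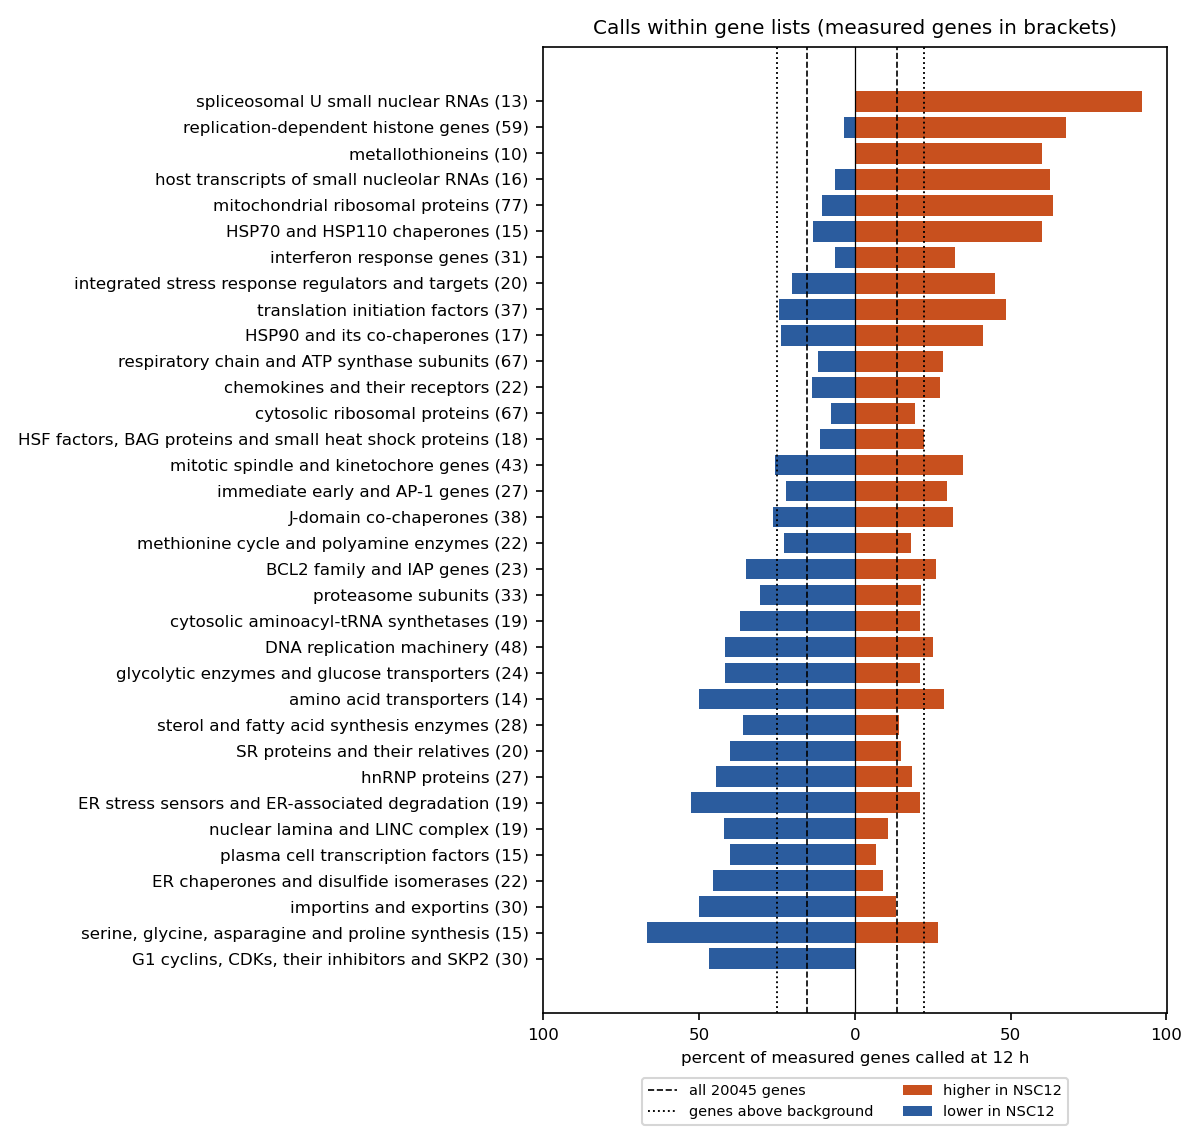
Share of the measured genes of 34 lists (number in brackets) that was higher (right) or lower (left) in NSC12 cells at 12 h, by limma at an adjusted p of 0.05. Dashed lines mark the shares over all 20045 genes, 13.6% higher and 15.2% lower, and dotted lines those over the 12169 genes above background, 22.2% and 24.8%; the small nuclear RNA bar reaches 92.3% higher and the G1 bar holds no rise.

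The response at 12 h was larger than that at 6 h in number of calls, and most early calls were also made later. Of the 1114 rises at 6 h (5.56% of genes), 73.7% were also called at 12 h, which is 30.0% of the 2734 rises at 12 h. Of the 1505 falls at 6 h (7.51%), 76.9% were also called at 12 h, which is 37.9% of the 3050 falls at 12 h. The times have their own DMSO arrays, and share the estimate of the spread. The change at 12 h differed from that at 6 h for 2089 genes (10.4%), 933 upward (4.65%) and 1156 downward (5.77%), by limma after quantile normalization. Under median centring the balance turned, with 277 upward and 87 downward of 364. Among the 12 h rises, 801 were further up than at 6 h and 24 less far. Among the 12 h falls, 1051 were further down and 14 less far. In the opposite direction at 6 h were 34 of the rises and 25 of the falls. The difference passed for all of these, as it nearly must where both changes passed with opposite signs.

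**Figure D5:**
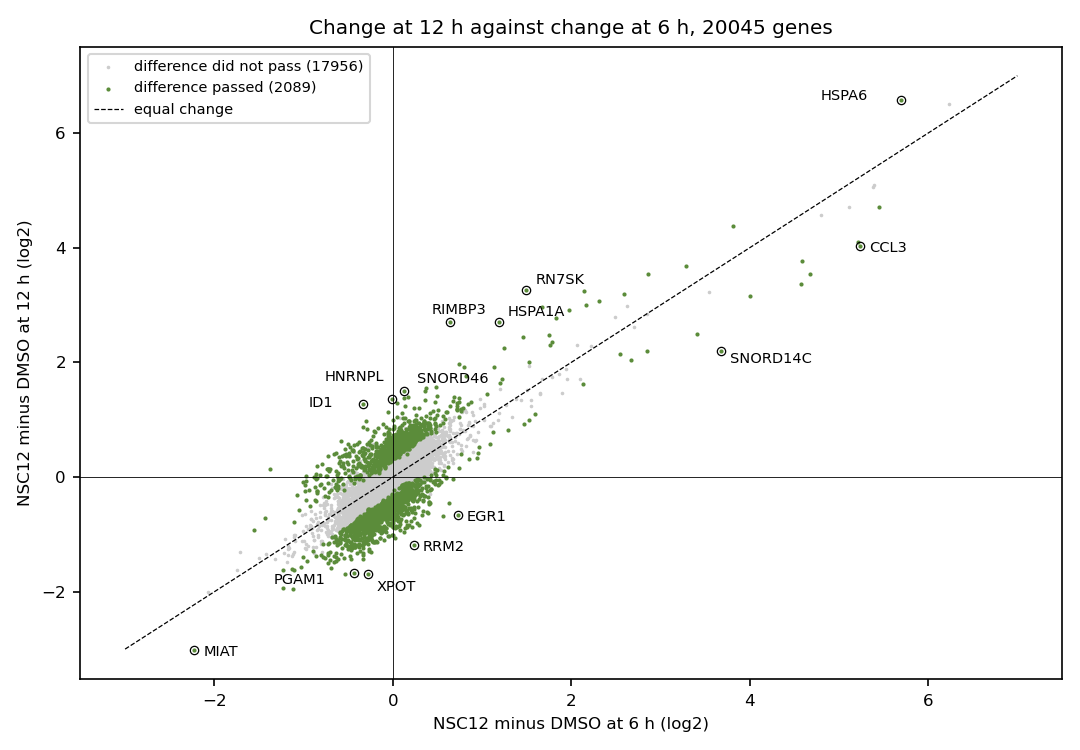
Change at 12 h against change at 6 h (NSC12 minus DMSO, log2), 1 point a gene, with the genes whose difference between the times passed at an adjusted p of 0.05 in green and a dashed line at equal change. RIMBP3, RN7SK and HSPA1A lie above the line, CCL3 and SNORD14C below it, and EGR1 is on the side of a rise at 6 h and of a fall at 12 h.

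The held genes that gained most between the times were led by RIMBP3, whose change was 2.70 at 12 h and 0.64 at 6 h, a difference of 2.06 ± 0.15 (adjusted p = 8.75e-08). The gene is known from testis, and the value rests on the 1 of its 3 probes that lay above background. RN7SK changed by 3.26 at 12 h and 1.497 at 6 h, a difference of 1.77 ± 0.19 (adjusted p = 6.67e-06). ID1 changed by 1.28 at 12 h and -0.34 at 6 h, a difference of 1.61 ± 0.13 (adjusted p = 2.99e-07). HSPA1A averaged 9.57 at 12 h and 8.08 at 6 h in NSC12 cells, and lay below background in DMSO cells at both times, so that no exact change is given. HSPA6 changed by 6.59 at 12 h and 5.69 at 6 h, a difference of 0.89 ± 0.10 (adjusted p = 5.86e-06), but its level in NSC12 cells was 13.95 at 12 h and 13.96 at 6 h. On these values the difference lay in DMSO cells, where HSPA6 averaged 7.36 at 12 h, near background, and 8.27 at 6 h. Whether its level in NSC12 cells was held down by the upper end of the intensity scale was not tested. SNORD46 changed by 1.496 at 12 h and 0.12 at 6 h, a difference of 1.37 ± 0.12 (adjusted p = 8.17e-07) and HNRNPL by 1.37 at 12 h and -0.01 at 6 h, a difference of 1.38 ± 0.31 (adjusted p = 0.00486).

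In the other direction, RRM2, the ribonucleotide reductase subunit of S phase, changed by -1.19 at 12 h and 0.24 at 6 h, a difference of -1.43 ± 0.20 (adjusted p = 0.000104). XPOT changed by -1.69 at 12 h and -0.28 at 6 h, a difference of -1.41 ± 0.29 (adjusted p = 0.0026) and PGAM1 by -1.67 at 12 h and -0.43 at 6 h, a difference of -1.24 ± 0.17 (adjusted p = 8.07e-05). EGR1, an immediate early gene of MAPK signalling, changed by -0.66 at 12 h and 0.73 at 6 h, a difference of -1.39 ± 0.15 (adjusted p = 5.4e-06). Its DMSO level was itself 0.74 higher at 12 h than at 6 h. CCL3 changed by 4.02 at 12 h and 5.24 at 6 h, a difference of -1.21 ± 0.11 (adjusted p = 8.4e-07), with a DMSO level 0.96 higher at 12 h. SNORD14C changed by 2.20 at 12 h and 3.68 at 6 h, a difference of -1.49 ± 0.20 (adjusted p = 6.48e-05). PPP1R15A was 2.85 at 12 h and 2.85 at 6 h, and the difference did not pass (adjusted p = 0.998). SKP2 was -1.42 at 12 h and -1.497 at 6 h (adjusted p = 0.747).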

How the data were processed

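Total RNA was extracted with Trizol and made into biotinylated cRNA with the Ambion MessageAmp kit, per the labels' protocols. For each of 47319 probes the authors deposited a linear intensity. Which scanner software, background correction and normalization lie behind it is not given in the sources used here. Intensities were floored at 16, quantile normalized over the 12 arrays and taken to log2 (limma 3.58.1, R 4.3.3). Of the probes, 30111 had 1 gene symbol in the platform annotation, 8 several and 17200 none; 30072 were given current names through Entrez IDs in RefSeq GRCh38.p14. The brightest probe stood for each of 20045 genes, 6691 of which had more than 1 probe. Background was the 95th percentile of the mean level of 371 olfactory receptor genes, 6.97 on the log2 scale, and 12169 genes (60.7%) lay above it at 12 h.

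A model with 1 mean per group over all 12 arrays was fitted with limma, with moderated variances that follow the level and two-sided p-values adjusted by Benjamini-Hochberg over all genes at 0.05. Alternatives were median centring, cyclic loess, normexp with an offset of 50, a filter on dim genes, the mean of a gene's probes, the replicate number as a block, the 12 h arrays alone and leaving out each array. A fold against a group below background is a bound, taken against the background level. On simulated data for the 12 h comparison over 20045 genes, all planted changes of 0.5 (68 genes), 1 (66) and 2 (66) on the log2 scale were called, with 9 false calls. Having 3 arrays a group limits the precision.

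The comparison and the gene lists were chosen with earlier results of these data known, and no list is independent support for its direction. Named are the 15 largest held rises and falls, the 6 largest held differences each way between 12 h and 6 h, up to 5 held calls of largest change per list described, and FGFR3, NSD2, MYC, IRF4, CCND2, MCL1 and BCL2, beside markers of the cell type check. Chosen after their values were seen were CHAC1, TRIB3, JUNB, KLF2, HSPA8, DNAJB6, HSF1, MTF1, MT1B, MT4, H2AC11, H2BC21, LMNA, LMNB1, NUTF2, NXT1, MRPS34, ORC3, ORC5, RNU4-2, RNU5D-1, RNU6-1, RNY1, RPPH1, RMRP, VTRNA1-1, VTRNA2-1, SNAR-A1, SNORD3A, SNORA28, SCARNA13 and SCARNA18. Figures were drawn with matplotlib 3.10.9.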

Additional observations from a re-analysis of the deposited data

Results flagged for a closer look

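For 12 held genes the change at 12 h differed from that at 6 h by more than for the other held genes in the same direction (limma, adjusted p under the threshold in each case). The difference in log2 change, 12 h minus 6 h, was 2.06 for RIMBP3, 1.77 for RN7SK, 1.61 for ID1, 1.52 for HSPA1A, 1.38 for HNRNPL and 1.37 for SNORD46. It was -1.49 for SNORD14C, -1.43 for RRM2, -1.41 for XPOT, -1.39 for EGR1, -1.24 for PGAM1 and -1.21 for CCL3. CCL3 and SNORD14C were higher in NSC12 cells at both times, less so at 12 h, whereas EGR1 was lower at 12 h and higher at 6 h. HSPA1A lay below background in DMSO cells at both times, so its value is a difference of compressed changes and not an exact size.

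A signal was also present in probes that the gene comparison left out. Of 17208 probes with no gene symbol or several, 1785 (10.4%) passed at 12 h by the same test, 1050 higher and 735 lower in NSC12 cells.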

How the results depend on the processing

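Under median centring 1483 genes were higher at 12 h in place of 2734, and the difference between 12 h and 6 h passed for 364 genes (277 higher and 87 lower) in place of 2089 (933 higher and 1156 lower); the cause was not tested. The other alternatives kept each of these counts within 1.5 times. Leaving out single arrays gave 5108 to 5874 calls at 12 h, 2382 to 2780 higher and 2684 to 3094 lower. For the difference between the times it gave 1541 to 2160 calls, 649 to 995 higher and 892 to 1182 lower. Same-numbered NSC12 and DMSO arrays of 12 h did not deviate together (correlations of -0.156, -0.036 and 0.062), so the numbers were not taken as pairs; with the replicate block 5695 genes passed, 2704 higher and 2991 lower. No named gene turned its direction under the alternatives run where its change passed in the main fit or in the alternative. NSD2, which passed in neither, went from 0.10 to -0.07 as the mean of its probes. Genes chosen after their values were seen were not part of this check. Of the values of named genes under the alternatives, 4721 kept their call and 10 lost it: IRF4 and MYC under median centring, and TCP1, DERL3, KPNA2, NUF2, PRDM1, SDC1, HDAC7 and SMAD5 as the mean of their probes. Of the counts within lists, 1862 stayed within 1.5 times and 114 did not. Genes below background have compressed changes, and calls among them were under 1% in each direction.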
